A study of Bos taurus with 12 samples.

Results

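Collagen genes were followed in mesenchymal stem cells (MSCs) of bovine bone marrow, cells of the marrow stroma with the capacity to form cartilage, bone and fat. A gene was taken as a member when the platform gave its probe set 1 gene symbol of the form COL, number, A, number, and the probe set with the highest mean was used for each gene. This gave 42 genes, of 18010 genes measured with 1 symbol. Only COL5A1 had a second probe set, and neither of its probe sets gave a call in any of the 6 comparisons.

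The cells came from 3 juvenile cattle under 6 months of age, called donors 1 to 3. After a first passage at 21% oxygen without added growth factor, cells of each donor were expanded for 1 week in serum-containing basal medium under 4 conditions. These were 2% oxygen with TGF-β3 at 10 ng/mL (H1), 21% oxygen with TGF-β3 at 10 ng/mL (N1), 2% oxygen without TGF-β3 (H0) and 21% oxygen without TGF-β3 (N0). TGF-β3 is a cytokine of the TGF-β family used in cartilage induction, and 2% oxygen is the hypoxic condition. Total RNA of each culture was hybridised to 1 bovine whole-transcript array, so that each group held 3 arrays, 1 per donor. The question of the study was how the transcripts respond to the factor, to low oxygen and to their combination.

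Collagens are built from 3 chains wound into a helix. Fibrillar collagens form the cable-like fibrils of skin, bone, tendon and cartilage, and fibril-associated collagens with interrupted helices (FACITs) sit on their surface. Type IV collagen makes the sheet of basement membranes, types VIII and X make hexagonal networks, type VI makes beaded filaments around cells, and a few collagens span the cell membrane. In fibroblasts and stromal cells TGF-β is widely known to promote matrix deposition, and in pellet culture it induces the cartilage collagen of type II.

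Array medians of the log2 signals spanned 6.59 to 6.66. Precision is limited by having 3 arrays in a group. Differences are log2 differences of group means ± SE from limma with n = 3 per group, and a gene is called where the p-value, adjusted over all 26773 probe sets, is under 0.05. The fit has group as its only term. A second fit has donor as a block, since the arrays of a donor come from 1 animal. It is quoted where it changes a call, for COL2A1, COL6A3, COL15A1 and COL23A1, and as a range over the calls. Of 42 collagen genes, COL4A4, COL10A1, COL6A5, COL19A1 and COL21A1 lay below the first quartile of all probe sets on all 12 arrays. These 5 genes thus gave signals near the dim end of the array. The RNA is of whole cultures, so fewer cells of a type and less RNA per cell cannot be told apart.

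With TGF-β3 at 21% oxygen, COL8A1 and COL12A1 rose and COL14A1 and COL3A1 fell. The 4 genes are 9.52% of the 42, beside 2.75% of all probe sets called in that comparison (1.28% higher and 1.47% lower). At 2% oxygen the same 4 genes were called in the same directions, again 9.52% of the collagens beside 3.05% of all probe sets (1.45% higher and 1.61% lower). The block on donor gave 5 calls at 21% oxygen (11.9%, beside 6.35% of all probe sets) and 6 at 2% oxygen (14.3%, beside 6.98%). Collagen genes lay on both sides of 0, with 21 above and 21 below at 21% oxygen and 20 above and 22 below at 2% oxygen. Their median change was 0.01 at 21% oxygen and -0.01 at 2% oxygen, and the median of all probe sets was 0.01 in both. The median size of change was 0.15 and 0.13 for the collagens, against 0.12 for all probe sets at either oxygen tension. At an unadjusted p under 0.05, 10 collagens passed at 21% oxygen (23.8%, beside 14.9% of all probe sets) and 13 at 2% oxygen (31.0%, beside 15.7%). The 3 arrays with TGF-β3 did not overlap the 3 without it for 10 collagens at 21% oxygen, beside 20.7% of all probe sets, and for 13 at 2% oxygen, beside 19.5%. These are 23.8% and 31.0% of the collagens.

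**Figure D1:**
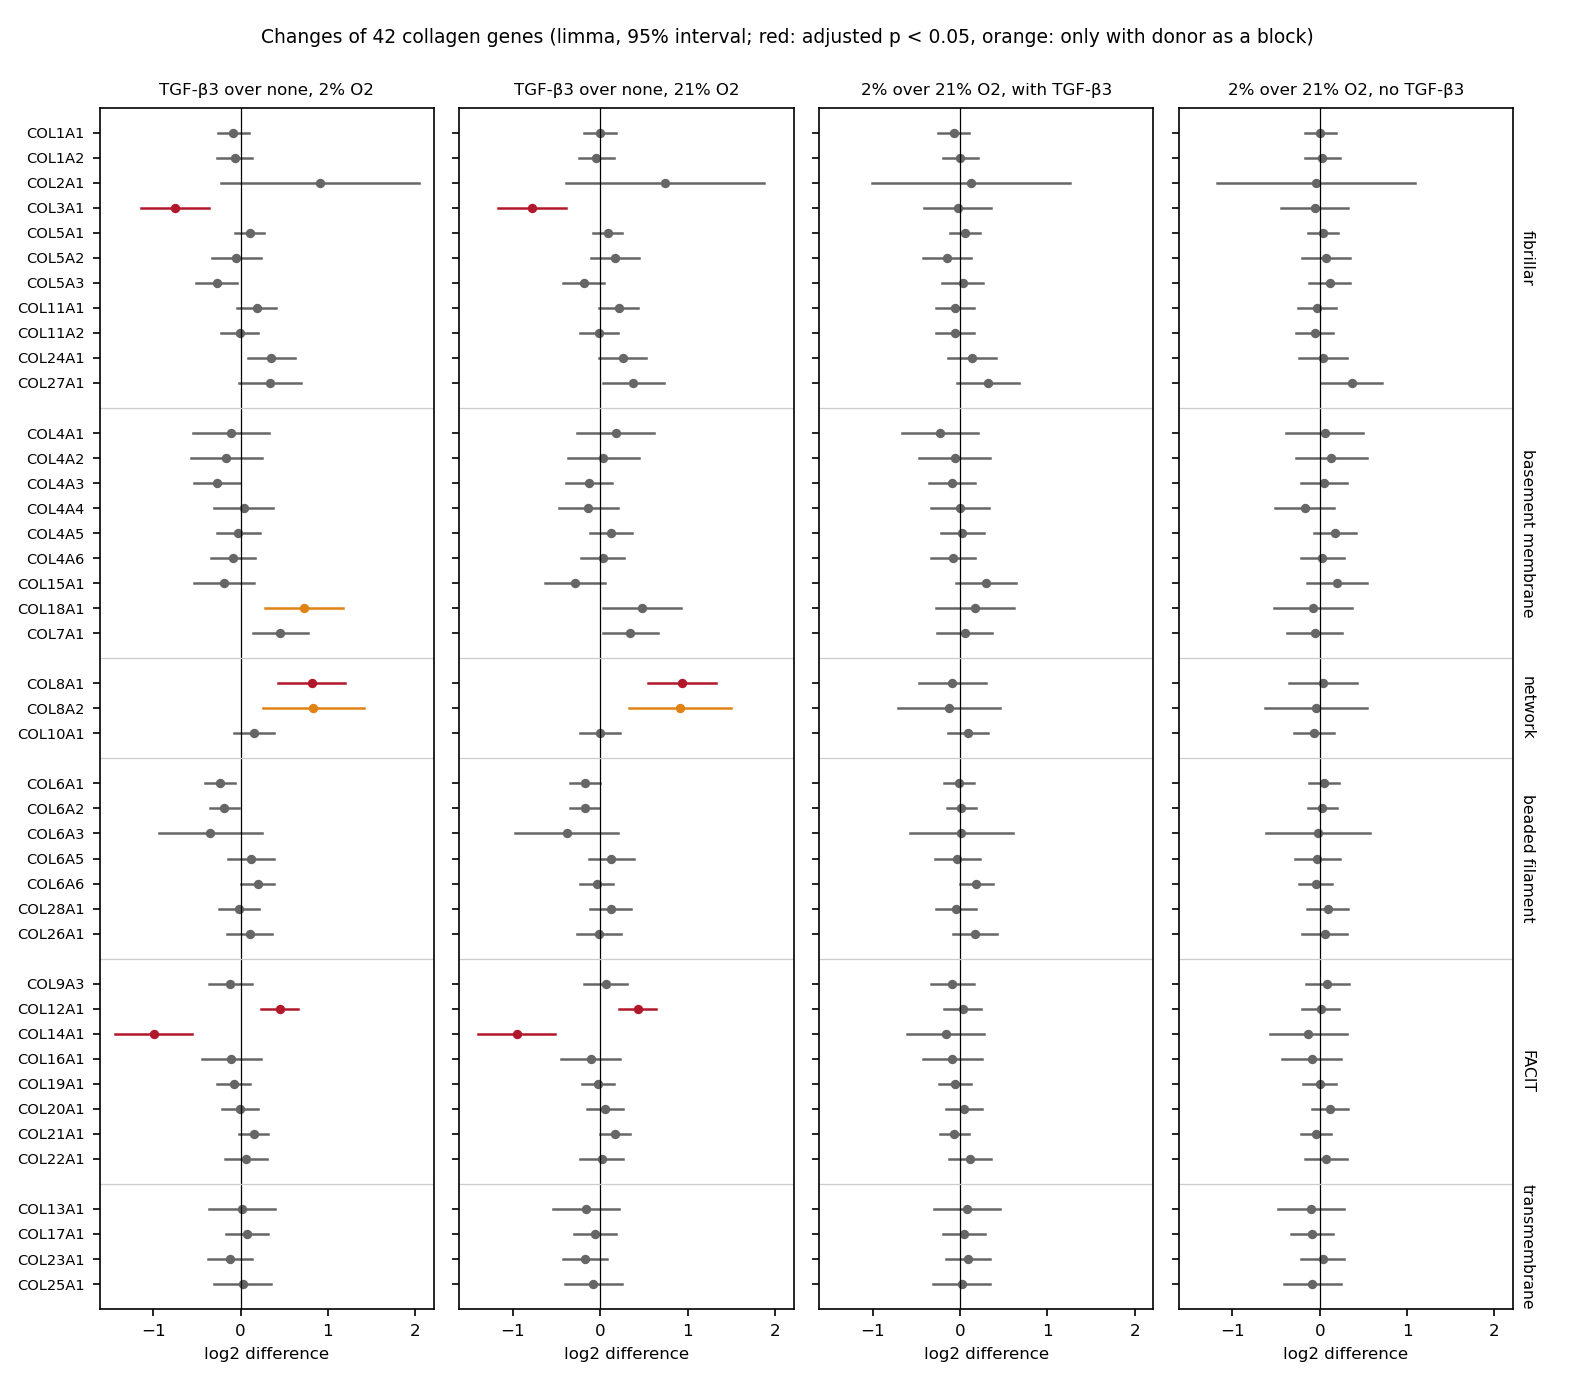
Log2 differences with 95% intervals from limma for the 42 collagen genes, grouped by class, in 4 panels, 1 per single comparison. Each point is a gene and the vertical line marks no change. In both TGF-β3 panels the called genes COL8A1 and COL12A1 lie right of 0 and COL14A1 and COL3A1 left of it. COL2A1, COL8A2 and COL18A1, not called in the group-only fit, lie further right than COL12A1 in both. The points of the hypoxia panels stay between -0.23 and 0.36.

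The rise in COL8A1, which codes for a chain of the short-chain network collagen VIII known from vessel walls and the cornea, was seen in all 3 donors. COL8A1 gave log2 signals of 11.35, 11.52 and 11.50 with TGF-β3 at 21% oxygen, against 10.43, 10.51 and 10.62 without it. At 2% oxygen COL8A1 gave 11.22, 11.46 and 11.42 with TGF-β3, against 10.43, 10.20 and 11.04 without it. The groups did not overlap at either oxygen tension, and the array of donor 3 without TGF-β3 at 2% oxygen was the highest of the 6 without the factor. The change was 0.94 ± 0.18 at 21% oxygen, or 1.92-fold (limma adjusted p = 0.0177), and 0.81 ± 0.18 at 2% oxygen (limma adjusted p = 0.0318). By donor, it was 0.92, 1.01 and 0.88 at 21% oxygen and 0.79, 1.27 and 0.38 at 2% oxygen.

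COL8A2, the partner chain of collagen VIII, had a similar mean difference with a wider spread between donors. COL8A2 gave 8.07, 8.08 and 7.11 with TGF-β3 at 21% oxygen, against 6.71, 6.94 and 6.86 without it. At 2% oxygen it gave 7.77, 8.0 and 7.10 with TGF-β3, against 6.88, 6.81 and 6.69 without it. Groups did not overlap, but donor 3 stayed close to the cells without the factor. The change of 0.91 ± 0.27 at 21% oxygen was not called (limma adjusted p = 0.109), and neither was that of 0.83 ± 0.27 at 2% oxygen (limma adjusted p = 0.133). With donor as a block COL8A2 was called at both, with limma adjusted p = 0.0275 at 21% oxygen (0.00610 to 0.597 over all alternatives) and 0.0371 at 2% oxygen (0.0102 to 0.528). Leaving out the array of donor 3 with TGF-β3 at 21% oxygen, or donor 3 altogether, also brought it under the threshold in both comparisons. The third network gene, COL10A1 of hypertrophic cartilage, was below the first quartile on every array. Its differences were 0.00 ± 0.11 at 21% oxygen and 0.15 ± 0.11 at 2% oxygen, neither called.

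The FACIT class held a gene called in each direction. COL12A1, whose protein binds the surface of type I fibrils in tendon and ligament, gave 13.14, 13.17 and 12.89 with TGF-β3 at 21% oxygen, against 12.63, 12.71 and 12.58 without it. At 2% oxygen COL12A1 gave 13.14, 13.19 and 12.95 with TGF-β3, against 12.63, 12.66 and 12.65 without it. Every array with the factor lay above every array without it. COL12A1 rose by 0.43 ± 0.096 at 21% oxygen (1.35-fold, limma adjusted p = 0.0399) and by 0.45 ± 0.096 at 2% oxygen (limma adjusted p = 0.0306).

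COL14A1, a FACIT that also sits on fibrils and is related to COL12A1 in its domains, went the other way. COL14A1 gave 9.48, 9.40 and 9.62 with TGF-β3 at 21% oxygen, against 10.14, 10.68 and 10.56 without it. At 2% oxygen COL14A1 gave 9.10, 9.24 and 9.66 with TGF-β3, against 10.33, 10.69 and 9.97 without it. Groups did not overlap, and donor 3 showed the smallest gap at 2% oxygen (-0.30, against -1.24 and -1.45 in donors 1 and 2). COL14A1 fell by 0.96 on the log2 scale at 21% oxygen (SE 0.20, 1.95-fold, limma adjusted p = 0.0306) and by 1.00 at 2% oxygen (SE 0.20, limma adjusted p = 0.0237). The other 6 FACIT genes gave no call, with differences between -0.11 and 0.17 at 21% oxygen and between -0.12 and 0.15 at 2% oxygen. COL9A1 and COL9A2 were not analysed here.

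**Figure D2:**
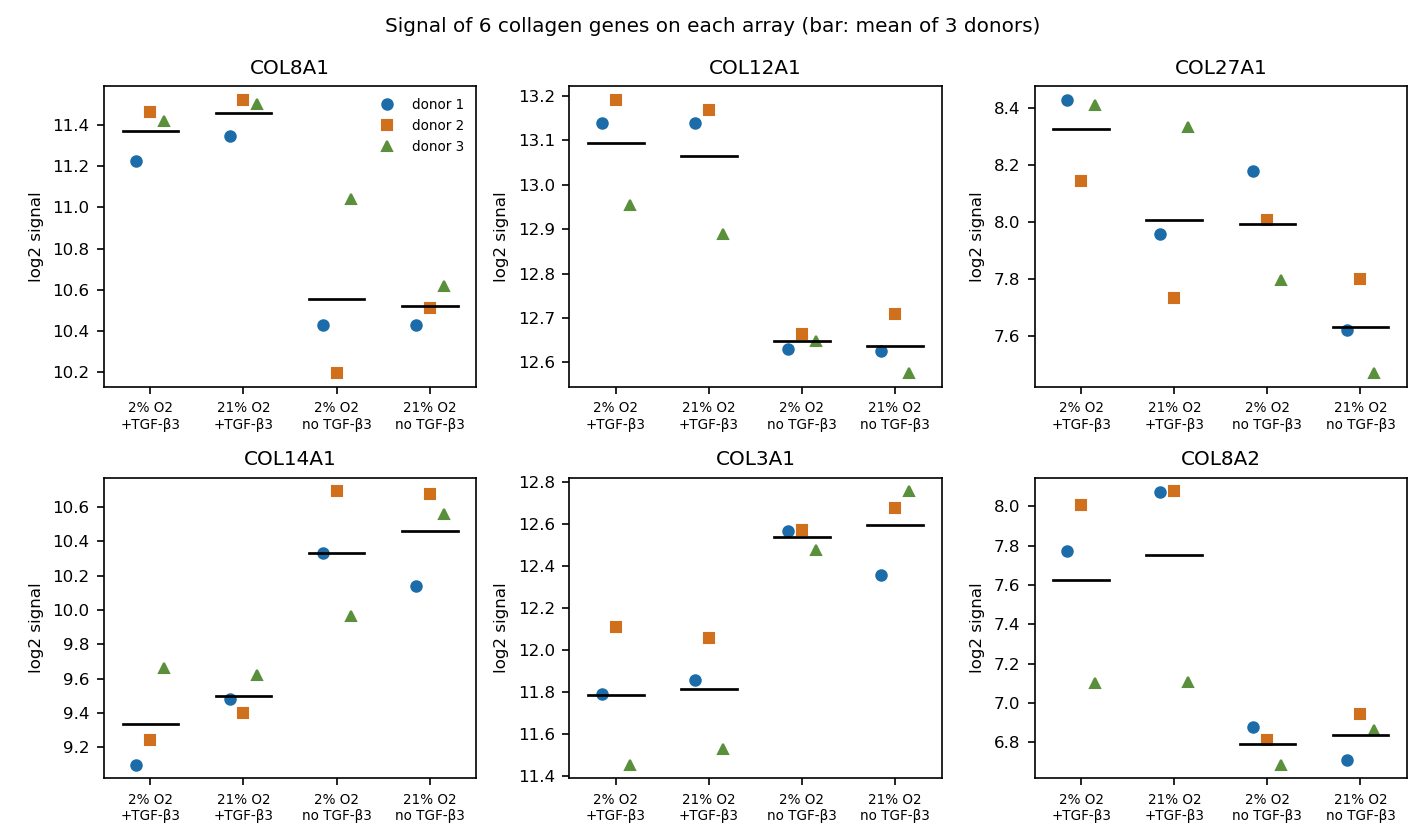
Log2 signal of COL8A1, COL12A1, COL27A1, COL14A1, COL3A1 and COL8A2 on each of the 12 arrays, with 1 panel per gene, the groups H1, N1, H0 and N0 along the horizontal axis, 1 marker per donor and a bar at each group mean. COL8A1 lies between 11.22 and 11.52 on the 6 arrays with TGF-β3, above all 6 without it, and COL3A1 lies between 11.45 and 12.11 on the arrays with TGF-β3, below all 6 without it.

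Among the 11 fibrillar genes COL3A1 was called in the TGF-β3 comparisons. Type III collagen is laid down with type I in skin, vessel walls and early scar tissue. COL3A1 gave 11.85, 12.05 and 11.53 with TGF-β3 at 21% oxygen, against 12.35, 12.68 and 12.76 without it. At 2% oxygen COL3A1 gave 11.79, 12.11 and 11.45 with TGF-β3, against 12.56, 12.57 and 12.48 without it. The groups did not overlap, and donor 3 was the lowest with the factor at both oxygen tensions. COL3A1 fell by 0.78 at 21% oxygen (SE 0.18, limma adjusted p = 0.0400) and by 0.75 at 2% oxygen (SE 0.18, limma adjusted p = 0.0441).

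The genes of the 2 chains of type I collagen, the main fibril protein of bone and tendon, had narrow intervals and gave no call. COL1A1 gave 13.49, 13.45 and 13.27 with TGF-β3 at 21% oxygen, against 13.41, 13.40 and 13.42 without it, and these ranges overlapped. Its difference was 0.00 (95% interval -0.18 to 0.18) at 21% oxygen and -0.08 (-0.26 to 0.10) at 2% oxygen. COL1A2 differed by -0.05 (-0.25 to 0.16) at 21% oxygen and by -0.07 (-0.27 to 0.13) at 2% oxygen. These intervals leave room for a change of either sign in the array signal, of under 0.3 in size on the log2 scale. The mean signals of COL1A1 and COL1A2, 13.39 and 13.16, lay at the 99.9th and 99.8th percentile of all probe sets. Whether signals this bright follow the amount of transcript in proportion was not tested.

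COL5A2, whose chain joins type V fibrils that start type I fibrils, lies next to COL3A1 in the RefSeq gene table. Its change with TGF-β3 was 0.17 ± 0.13 at 21% oxygen and -0.05 ± 0.13 at 2% oxygen, not called, where its neighbour COL3A1 was called. The difference between the neighbours was not tested. Of the other neighbouring pairs, COL6A1 and COL6A2 gave -0.18 and -0.18 at 21% oxygen and -0.24 and -0.19 at 2% oxygen. The pairs COL4A1 with COL4A2, COL4A3 with COL4A4 and COL4A5 with COL4A6, whose members code for chains that assemble together in type IV networks, gave no call in any comparison.

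The basement membrane class had 9 measured genes and no call in the group-only fit with TGF-β3 at either oxygen tension. COL18A1, which codes for the heparan sulphate proteoglycan that releases endostatin, gave 6.83, 7.09 and 6.73 with TGF-β3 at 21% oxygen, against 6.55, 6.33 and 6.35 without it. At 2% oxygen COL18A1 gave 6.95, 7.59 and 6.62 with TGF-β3, against 6.39, 6.42 and 6.19 without it. No array with the factor overlapped those without it, and the array of donor 2 at 2% oxygen stood highest. The change was 0.47 ± 0.20 at 21% oxygen (limma adjusted p = 0.30) and 0.73 ± 0.20 at 2% oxygen (limma adjusted p = 0.0850). With donor as a block the 2% comparison was called (limma adjusted p = 0.0295, with 0.0289 to 0.385 over all alternatives). Without the array of donor 2 with TGF-β3 at 2% oxygen, the difference was 0.46. The type IV genes COL4A1 and COL4A2 gave 0.17 ± 0.20 and 0.03 ± 0.19 at 21% oxygen and -0.11 ± 0.20 and -0.16 ± 0.19 at 2% oxygen. COL4A3 to COL4A6 ranged from -0.14 to 0.12 at 21% oxygen and from -0.27 to 0.03 at 2% oxygen, with no call.

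The beaded filament genes of type VI gave no call in any comparison. Type VI collagen is known from the matrix that directly surrounds chondrocytes. COL6A1 gave 12.44, 12.35 and 12.49 with TGF-β3 at 21% oxygen, against 12.61, 12.58 and 12.62 without it, and its groups did not overlap. Its difference of -0.18 ± 0.078 was not called (limma adjusted p = 0.314), and nor was that of -0.24 ± 0.078 at 2% oxygen (limma adjusted p = 0.149). COL6A2 gave -0.18 ± 0.076 at 21% oxygen and -0.19 ± 0.076 at 2% oxygen. The 4 transmembrane genes lay between -0.18 and -0.06 at 21% oxygen and between -0.12 and 0.08 at 2% oxygen. COL23A1 had the smallest p of them, with -0.18 ± 0.11 and -0.12 ± 0.11. By donor it differed by -0.20, -0.18 and -0.15 at 21% oxygen and by -0.11, -0.07 and -0.17 at 2% oxygen. With donor as a block the SE was 0.067. COL23A1 was still not called there (limma adjusted p = 0.179 at 21% oxygen and 0.371 at 2% oxygen).

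Of the cartilage collagens, COL2A1, COL9A3, COL10A1, COL11A1 and COL11A2 were measured. None was called with TGF-β3. COL2A1, the main fibril chain of hyaline cartilage, gave 10.49, 9.78 and 8.55 with TGF-β3 at 21% oxygen, against 9.36, 8.73 and 8.49 without it. At 2% oxygen COL2A1 gave 10.38, 10.15 and 8.66 with TGF-β3, against 9.27, 8.56 and 8.65 without it. In donors 1 and 2 the signal was higher with the factor by between 1.05 and 1.59, and in donor 3 by 0.05 at 21% oxygen and by 0.01 at 2% oxygen. Over the 3 donors the difference was 0.74 ± 0.52 at 21% oxygen (95% interval -0.39 to 1.88, limma adjusted p = 0.575) and 0.91 ± 0.52 at 2% oxygen (-0.23 to 2.04, limma adjusted p = 0.456). These SEs and intervals include the spread in level between donors. With donor as a block the SE was 0.28. COL2A1 was still not called there (limma adjusted p = 0.176 at 21% oxygen and 0.0956 at 2% oxygen). COL11A1, the type XI chain that partners COL2A1 in cartilage fibrils, differed by 0.21 ± 0.10 and 0.18 ± 0.10. COL11A1 was likewise higher with TGF-β3 in donors 1 and 2 (0.32 and 0.33 at 21% oxygen) and not in donor 3 (-0.03).

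**Figure D3:**
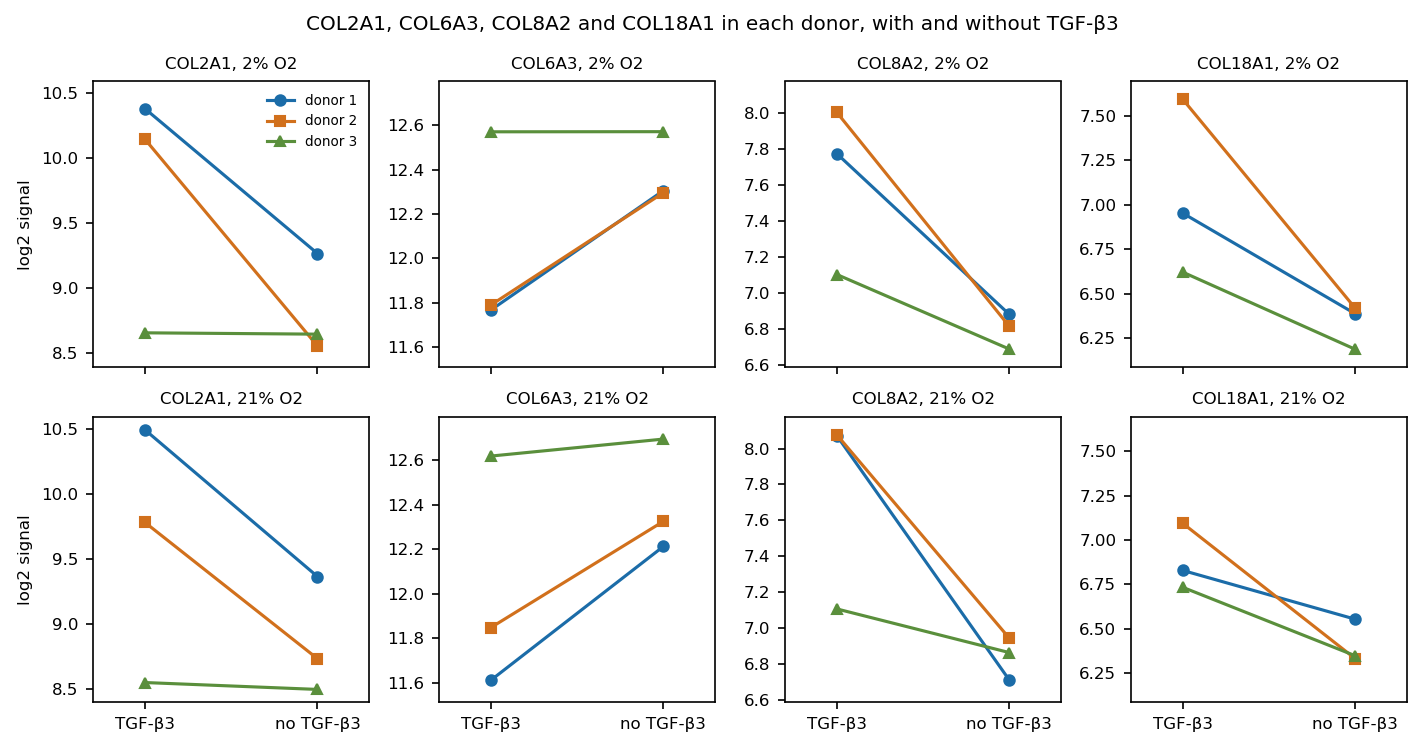
Log2 signal of COL2A1, COL6A3, COL8A2 and COL18A1 in each donor, with TGF-β3 to the left of no TGF-β3, at 2% and at 21% oxygen, and 1 line per donor. The line of donor 3 is nearly flat for COL2A1 and COL6A3, where donors 1 and 2 slope, in opposite directions for the genes.

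COL6A3, the large type VI chain, showed the same split between donors in the other direction. Its signal with TGF-β3 at 21% oxygen was 11.61, 11.85 and 12.62, against 12.21, 12.33 and 12.70 without it, and the ranges overlapped. The change by donor was -0.60, -0.48 and -0.08 at 21% oxygen and -0.54, -0.51 and 0.00 at 2% oxygen. The differences of the group means, -0.39 ± 0.27 and -0.35 ± 0.27, were not called. With donor as a block the SE was 0.13, and COL6A3 was still not called (limma adjusted p = 0.137 at 21% oxygen and 0.170 at 2% oxygen). COL2A1 had the widest spread of donor means among the collagens, with an SD of 0.65 (the 99.3rd percentile of all probe sets), followed by COL6A3 at 0.35 and COL8A2 at 0.28. The median SD of donor means was 0.078 over the 42 collagens, against 0.088 over all probe sets. These genes were picked for their donor spread after their values were seen, and the difference between donors was not tested.

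Hypoxia without TGF-β3 called none of the 42 collagens, beside 0.00374% of all probe sets. At an unadjusted p under 0.05 only COL27A1 passed, 2.38% of the collagens, beside 5.4% of all probe sets, and the fit with donor as a block called 0 collagens, beside 0.0112%. Hypoxia with TGF-β3 called 0 collagens as well, beside 0% of all probe sets, with 0 collagens at an unadjusted p under 0.05 beside 4.3%. There the fit with donor as a block called 0 collagens, beside 0.0224%, and no collagen had groups that did not overlap, beside 8.6% of all probe sets. The interval of the change was within 2-fold in both directions for 41 of 42 genes in each of the hypoxia comparisons. It was within 1.5-fold for 38 genes without TGF-β3 and for 34 with it. COL1A1 differed by 0.01 (95% interval -0.17 to 0.19) with hypoxia alone, and COL12A1 by 0.01 (-0.20 to 0.22). COL15A1, whose protein lies at the outer face of basement membranes, was the 1 collagen whose groups did not overlap with hypoxia alone, beside 11% of all probe sets. COL15A1 gave 11.27, 11.19 and 11.13 at 2% oxygen, against 10.89, 11.01 and 11.10 at 21% oxygen, a difference of 0.20 ± 0.16 that was not called. With hypoxia added to TGF-β3 its groups overlapped, and the difference was 0.30 ± 0.16, or 0.29, 0.28 and 0.33 by donor. With donor as a block the SE was 0.13, and it was not called in either fit (blocked limma adjusted p = 0.698).

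COL27A1 rose with both treatments together against no treatment, and no single treatment gave a call for it. Type XXVII collagen forms thin fibrils in the growth plate. COL27A1 gave 8.43, 8.14 and 8.41 with both, 7.96, 7.73 and 8.33 with TGF-β3 at 21% oxygen, 8.18, 8.01 and 7.79 with hypoxia alone and 7.62, 7.80 and 7.47 with neither. All arrays with both were above all arrays with neither, and the single treatments lay between and overlapped the groups around them. The difference was 0.70 ± 0.16 for both against neither (limma adjusted p = 0.0350), 0.38 ± 0.16 for TGF-β3 at 21% oxygen (limma adjusted p = 0.292) and 0.36 ± 0.16 for hypoxia alone (limma adjusted p = 0.922). Adding TGF-β3 at 2% oxygen gave 0.33 ± 0.16, and adding hypoxia to TGF-β3 gave 0.32 ± 0.16. The interaction was -0.04 (95% interval -0.54 to 0.45), so that more or less than an additive change on the log2 scale could not be resolved beyond that interval.

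Both treatments against neither called 5 collagens, COL8A1, COL12A1 and COL27A1 higher and COL14A1 and COL3A1 lower, 11.9% of the collagens beside 3.74% of all probe sets (1.89% higher and 1.86% lower). The 3 arrays with both did not overlap the 3 with neither for 13 collagens, beside 22% of all probe sets. This comparison shares its N0 arrays with the TGF-β3 comparison at 21% oxygen and its H1 arrays with the TGF-β3 comparison at 2% oxygen. COL14A1 had the largest fall, 1.13 on the log2 scale (2.18-fold, SE 0.20, limma adjusted p = 0.0112), and COL8A1 the largest rise among the called genes, 0.85 ± 0.18 (limma adjusted p = 0.0220). COL12A1 rose by 0.46 ± 0.096 (limma adjusted p = 0.0235) and COL3A1 fell by 0.81 (SE 0.18, limma adjusted p = 0.0276). With donor as a block, 8 collagens were called (19.0%, beside 7.64%), with COL8A2, COL18A1 and COL24A1 added. COL24A1, a minor fibrillar collagen of developing bone and cornea, gave 5.86, 6.29 and 5.84 with both, against 5.48, 5.76 and 5.58 with neither. The difference of 0.39 ± 0.12 had a limma adjusted p of 0.125 without the block and 0.0466 with it (0.0466 to 0.398 over all alternatives), and it was 0.25 without the array of donor 2 with both. COL8A2 gave 0.79 ± 0.27 (limma adjusted p = 0.153, with the block 0.0442, and 0.0105 to 0.563 over all alternatives). COL18A1 gave 0.64 ± 0.20 (limma adjusted p = 0.124, with the block 0.0450, and 0.0371 to 0.50 over all alternatives). Its difference was 0.37 without the array of donor 2 with both and 0.33 without donor 2.

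The interaction asks whether the change with TGF-β3 differed between 2% and 21% oxygen. The group-only limma fit called 0 of 42 collagens for it, beside 0% of all probe sets. With donor as a block 0 collagens were called as well, again beside 0% of all probe sets. At an unadjusted p under 0.05 the group-only fit gave 0 collagens, beside 2.94% of all probe sets. The interval was within 2-fold in both directions for 41 genes and within 1.5-fold for 30. For COL8A1 the interaction was -0.12 (95% interval -0.67 to 0.42), for COL14A1 it was -0.04 (-0.67 to 0.59), and for COL12A1 it was 0.02 (-0.28 to 0.32). A change with the factor at 2% oxygen that differed from that at 21% oxygen by up to these bounds could not be told apart from none.

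All 13 calls of collagen genes were lost on leaving out at least 1 array, with no change of direction. All 13 were also lost without donor 1 and without donor 2, with limma adjusted p up to 0.398, in fits with 2 arrays in each group. Without donor 3, COL8A1 stayed called in its 3 comparisons, and COL12A1 at 2% oxygen and COL14A1 at 2% oxygen and in both against neither did so too. For COL8A1 at 21% oxygen the call was lost without any of the arrays of donors 1, 2 and 3 with no treatment or of donors 2 and 3 with TGF-β3 at 21% oxygen (limma adjusted p up to 0.0743). COL12A1 at 21% oxygen kept its call without the H1 array of donor 2, the H1 array of donor 3 or the N1 array of donor 3, and lost it without any of the other 9 (limma adjusted p up to 0.157). COL3A1 at 21% oxygen kept it without the N0 array of donor 1, the N1 array of donor 2, or the H1 array of donor 2 or 3, and lost it without the other 8 (up to 0.163). COL14A1 at 21% oxygen lost it without the N1 arrays of all 3 donors in turn or the N0 arrays of donors 2 and 3 (up to 0.126).

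At 2% oxygen COL8A1 lost its call without the H1 arrays of all 3 donors in turn, the H0 arrays of donors 1 and 2, or the N0 array of donor 2 (limma adjusted p up to 0.103). COL12A1 lost it without the H0 arrays of all 3 donors in turn or the H1 arrays of donors 1 and 2 (up to 0.112). COL14A1 lost it without the H1 and H0 arrays of donors 1 and 2 in turn (up to 0.0968). COL3A1 at 2% oxygen kept it without the N0 array of donor 1, the N1 array of donor 2 or 3, or the H1 array of donor 2, and lost it without the other 8 (up to 0.127). For both treatments against neither, COL8A1 lost its call without the N0 arrays of all donors in turn or the H1 arrays of donors 2 and 3, COL12A1 without the N0 arrays of all donors or the H1 arrays of donors 1 and 2, COL14A1 without the H1 array of donor 1 or the N0 arrays of donors 2 and 3, and COL3A1 without the H1 arrays of donors 1 and 3 or the N0 arrays of donors 2 and 3. The adjusted p there reached 0.0807, 0.103, 0.0565 and 0.118 in limma. COL27A1 kept the call without the H0 array of donor 1 or 3, the N1 array of donor 2 or 3, or the H1 array of donor 2, and lost it without the other 7 (up to 0.148).

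Genes for the enzymes that make and join collagen were given as a list of 34, of which 33 were measured. With TGF-β3 at 21% oxygen PLOD2, the lysyl hydroxylase that prepares the ends of collagen chains for crosslinking, was the 1 gene called of 33, beside 2.75% of all probe sets. PLOD2 gave 12.31, 12.52 and 12.26 with TGF-β3 at 21% oxygen, against 11.45, 11.39 and 11.21 without it, and rose by 1.01 ± 0.098 (limma adjusted p = 0.000415). At 2% oxygen PLOD2 (0.97 ± 0.098) and the lysyl oxidase-like gene LOXL4 (1.40 ± 0.30) rose, and both against neither called PLOD2 (1.23 ± 0.098), FKBP14 (0.55 ± 0.12), a peptidyl-prolyl isomerase of collagen folding, and BMP1 (0.51 ± 0.12), which cuts the procollagen ends. No member was called lower, and the shares of all probe sets called were 3.05% at 2% oxygen and 3.74% for both against neither. With donor as a block, 4 rose and 1 fell at 21% oxygen (beside 6.35% of all probe sets) and 5 rose and 1 fell at 2% oxygen (beside 6.98%). Hypoxia called 0 of the 33 in limma with or without TGF-β3, and 4 passed an unadjusted p under 0.05 in each comparison, beside 5.4% of all probe sets without TGF-β3 and 4.3% with it. The median change of the list was -0.01 at 21% oxygen and 0.07 at 2% oxygen, against 0.01 over all probe sets in both.

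**Figure D4:**
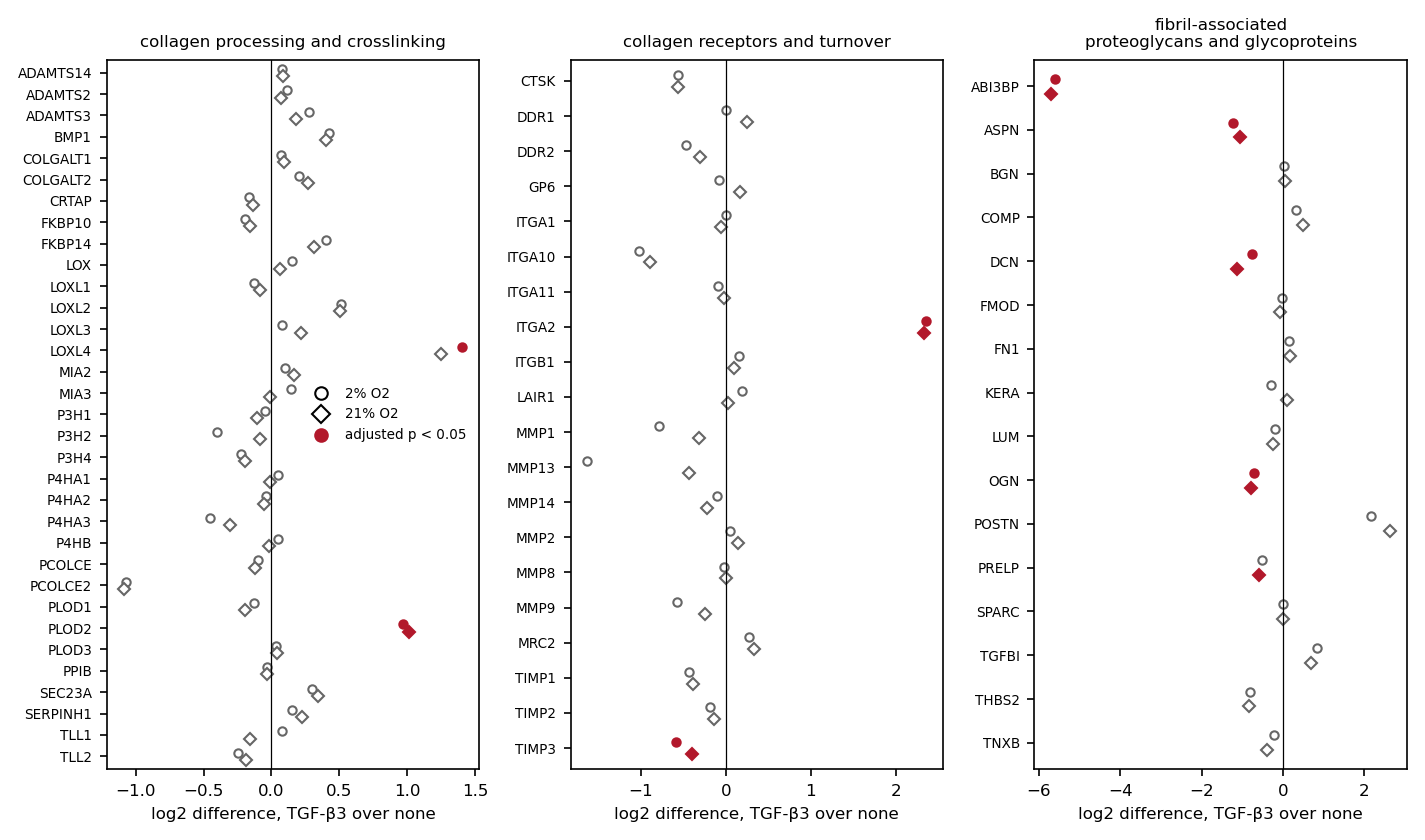
Log2 difference with TGF-β3 at 2% oxygen and at 21% oxygen for the genes of the collagen processing, collagen receptor and turnover, and fibril-associated proteoglycan lists, with a circle (2% oxygen) and a diamond (21% oxygen) per gene, filled red where called. PLOD2 lies at 0.97 and 1.01, ITGA2 at 2.36 and 2.34, and OGN at -0.70 and -0.78.

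Of 20 genes for collagen receptors and turnover, ITGA2 rose and TIMP3 fell at both oxygen tensions, beside 2.75% of all probe sets called at 21% oxygen and 3.05% at 2% oxygen. ITGA2 codes for the α2 chain of the integrin that binds collagen, and it gave 6.84, 6.57 and 7.67 with TGF-β3 at 21% oxygen, against 4.73, 4.60 and 4.74 without it. Its rise was 2.34 ± 0.29 at 21% oxygen (limma adjusted p = 0.00191) and 2.36 ± 0.29 at 2% oxygen (limma adjusted p = 0.00172). Its 3 values without TGF-β3 at 21% oxygen lay below the first quartiles of the arrays (4.89 to 4.98). So did that of donor 2 at 2% oxygen (4.35). The size of the rise therefore rests on signals near the dim end of the array. TIMP3, an inhibitor of matrix metalloproteinases held in the matrix, fell by 0.40 at 21% oxygen and by 0.59 at 2% oxygen (SE 0.079 each). Blocked on donor, 1 rose and 4 fell at 21% oxygen (beside 6.35%), and 1 rose and 5 fell at 2% oxygen (beside 6.98%). Both against neither also called CTSK, a collagen-cleaving cysteine protease, which fell by 0.75.

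Of 16 measured genes of fibril-associated proteoglycans and glycoproteins, 5 fell and 0 rose with TGF-β3 at 21% oxygen, namely OGN, ABI3BP, DCN, ASPN and PRELP, beside 2.75% of all probe sets called (1.47% lower). OGN, a small leucine-rich proteoglycan, fell by 0.78 at 21% oxygen and by 0.70 at 2% oxygen. DCN, which binds and spaces fibrils, fell by 1.12 and 0.76. ABI3BP gave 4.78, 4.66 and 5.54 with TGF-β3 at 21% oxygen, against 8.43, 11.99 and 11.63 without it. Its values with the factor in donors 1 and 2 lay below the first quartiles of the arrays (4.89 to 4.98). The size of its fall therefore rests on signals near the dim end of the array. Called in both comparisons were OGN, ABI3BP, DCN and ASPN, and PRELP differed by -0.60 ± 0.13 at 21% oxygen, where it was called, and by -0.50 ± 0.13 at 2% oxygen (limma adjusted p = 0.0561, called with the block). Its interaction was 0.09 ± 0.18, not called. Blocked on donor, 1 rose and 6 fell at each oxygen tension, beside 6.35% of all probe sets called at 21% oxygen and 6.98% at 2% oxygen. Both treatments against neither called POSTN and TGFBI higher and OGN, ABI3BP, ASPN and THBS2 lower, beside 3.74% of all probe sets. The group-only fit gave no call for DCN and PRELP there. With donor as a block DCN was called lower in both against neither and PRELP was not called, beside 7.64% of all probe sets. The median change of the list was -0.16 at 21% oxygen, against 0.01 over all probe sets.

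Markers of cell types that carry or lack particular collagens were also read in the 4 groups. A summed linear signal is weighted to the brightest genes of its list. SPP1 (mean log2 signal 13.2) led the osteoblast markers, ERG (10.2) the endothelial markers, and HAPLN1 (10.1) and ACAN (9.89) the chondrocyte markers. The 8 stromal markers gave a summed linear signal of 25792 to 27263 in H1, 24848 to 26535 in N1, 30840 to 33087 in H0 and 31007 to 32198 in N0, with 1 of 8 called lower with TGF-β3 at each oxygen tension and in both against neither (PDGFRB). The block on donor called 4 of the 8 lower in each of these comparisons (THY1, NT5E, ENG and PDGFRB). Of all probe sets, the group-only fit called 2.75% with TGF-β3 at 21% oxygen, 3.05% at 2% oxygen and 3.74% in both against neither. The block on donor called 6.35%, 6.98% and 7.64% of all probe sets there. An unadjusted p under 0.05 was passed by 14.9% with TGF-β3 at 21% oxygen and 15.7% at 2% oxygen. The 7 chondrocyte markers summed to 1359 to 3176 in H1, 1007 to 2507 in N1, 3797 to 7580 in H0 and 2024 to 5074 in N0, with 0 called with TGF-β3 in the group-only limma fit, 3 at an unadjusted p under 0.05 at each oxygen tension, and EPYC below the first quartile on all arrays. The block on donor called ACAN and HAPLN1 lower at both oxygen tensions and in both against neither, and MATN3 higher at 2% oxygen and in both against neither. The 8 osteoblast markers summed to 9827 to 12894 in H1 and 9859 to 12201 in N1. Their sums were 12373 to 15511 in H0 and 11808 to 13014 in N0. Sums with and without TGF-β3 overlapped for the osteoblast markers at both oxygen tensions and for the chondrocyte markers at 21% oxygen. These ranges pool the 3 donors and do not show the change within a donor. At 21% oxygen ACAN gave 7.99, 8.86 and 10.02 by donor with TGF-β3, against 9.31, 10.23 and 11.14 without it. HAPLN1 gave 8.17, 8.57 and 10.14, against 10.04, 10.22 and 11.27. MATN3 went the other way, with 6.48, 6.38 and 5.58, against 5.74, 5.43 and 5.47. The group-only fit called 0 osteoblast markers with TGF-β3, and the block on donor called SP7 lower at 2% oxygen. IBSP and DMP1 were below the first quartile on all arrays. The 8 endothelial markers summed to 1999 to 2119 in H1, 1734 to 1942 in N1, 1040 to 1723 in H0 and 1096 to 1337 in N0, where PECAM1 was called higher with TGF-β3, ERG was higher in both against neither with the block on donor, and KDR and EMCN were below the first quartile on all arrays. The 8 adipocyte markers summed to 531 to 690 in H1, 423 to 613 in N1, 1058 to 1443 in H0 and 836 to 1200 in N0, with FABP4 called lower with TGF-β3 and in both against neither, and LPL called higher in both against neither. FABP4 lay below the first quartiles on the arrays of donors 1 and 2 with TGF-β3, so the size of its fall rests on dim signals. The block on donor also called PPARG lower with TGF-β3 at 2% oxygen and LPL higher in both hypoxia comparisons. Those hypoxia calls stand beside 0.0112% of all probe sets without TGF-β3 and 0.0224% with it. The 7 haematopoietic markers summed to 448 to 541 over all 12 arrays, with PTPRC and CD48 below the first quartile on all of them. The part of the stromal, chondrocyte, osteoblast, endothelial and adipocyte markers in the collagen results was not tested.

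As a check of the treatments, the TGF-β target genes PMEPA1 and SKIL rose with TGF-β3, by 1.93 and 1.24 at 21% oxygen and by 1.87 and 1.22 at 2% oxygen. The other 2 of the 4 TGF-β check genes measured, SMAD7 and TGFBI, gave no call, with 0.67 ± 0.22 and 0.70 ± 0.27 at 21% oxygen and 0.47 ± 0.22 and 0.84 ± 0.27 at 2% oxygen. The block on donor called SMAD7 in both. The 5 hypoxia check genes all had differences above 0 with hypoxia alone and with hypoxia added to TGF-β3, though limma called 0 of them in either comparison. Of all probe sets, 0.00374% were called with hypoxia alone and 0% with hypoxia added to TGF-β3. At an unadjusted p under 0.05, all 5 check genes passed with hypoxia alone, beside 5.4% of all probe sets. With hypoxia added to TGF-β3, 4 passed, beside 4.3%. CA9 and PDK1, for example, differed by 1.21 ± 0.45 and 0.65 ± 0.17 with hypoxia alone. Genes of this list were also called higher with TGF-β3, namely VEGFA at 21% oxygen and VEGFA and CA9 at 2% oxygen. The list thus does not separate hypoxia from the factor. The hypoxia comparisons of the collagens thus stand beside check genes that did not pass the adjusted test.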

How the data were processed

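The deposited table holds log2 signals of 12 arrays made by the authors with robust multi-array averaging (RMA), per the labels, and the submitters' processing notes name Partek 6.6. Array, donor and condition were taken from the titles. The range of the values was taken as that of log2 signals, and the array library version is not given in the sources used here. Symbols came from the platform annotation (18457 probe sets with 1 symbol, 688 with several, which were not named).

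Differences were tested in R 4.3.3 with limma 3.58.1 (lmFit, contrasts.fit, eBayes) on the whole set of arrays, with no term besides group, adjusted by Benjamini and Hochberg over 26773 probe sets at 0.05, with 8 residual and 3.14 prior degrees of freedom. Donor numbers mark cells of 1 animal: same-donor arrays correlated in their deviations from the group means (r from 0.177 to 0.602), so a fit with donor as a block (6 residual degrees of freedom) is an alternative. Other alternatives were a random donor block, equal medians, quantile normalisation, a filter on dim probe sets, an intensity trend, only the arrays compared, the mean of probe sets per gene, omission of each array or donor, and a threshold of 2-fold. All of these but the random block had group as their only term. The scripts were tested on simulated arrays drawn without a shift shared by the arrays of a donor. Recovery was required there only for changes larger than those of the collagens. The test therefore does not bear on calls of the size reported here.

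The genes named are those called in any comparison in either fit, the smallest p of a class with no call, and COL1A1, COL1A2, COL2A1, COL3A1, COL4A1 to COL4A6, COL10A1 and COL11A1, with up to 6 called members of each other list. COL5A2, COL6A2, COL6A3, COL15A1 and the gene pairs of the RefSeq table (ARS-UCD2.0) were added after their values were seen. The members and lists were chosen with earlier results of these data known.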

Additional observations from a re-analysis of the deposited data

How the results depend on the processing

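Of 436 alternative values of 19 results for single collagen genes, 304 stayed on their side of the threshold, 115 lost the call, 17 gained it and 0 changed sign. With TGF-β3 at 21% oxygen 4 collagens were called, and the count ran from 0 to 4 on leaving out single arrays and from 0 to 2 on leaving out a donor. With TGF-β3 at 2% oxygen 4 were called, with 0 to 5 and 0 to 4. Both treatments against neither called 5, with 0 to 6 and 0 to 3. The replicate block, with donor as a fixed term, gave 5 and 6 for the 2 TGF-β3 comparisons and 8 for both against neither, and the pairing changed no other collagen call. The random block gave 5, 5 and 5, without COL8A2 at 2% oxygen (limma adjusted p = 0.0594), and without COL8A2 (0.0712), COL18A1 (0.0590) and COL24A1 (0.0586) in both against neither. With only the arrays compared, 2, 0 and 3 collagens were called, in fits with fewer samples. A 2-fold threshold left 0, 0 and 1 (COL14A1). Leaving out dim probe sets added COL18A1 at 2% oxygen. Equal medians, quantile normalisation, an intensity trend and the mean of probe sets called the same genes as the fit reported. Both hypoxia comparisons and the interaction called 0 collagens under every alternative run, among the collagens that each alternative kept. Log ratios of the 5 dimmest genes rest on signals near the array's floor, and 3 arrays a group limit every interval. No scan or extraction batch is named in the labels, so none was tested.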
